A study of Mus musculus with 9 samples.

Results

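The AP-1 (activator protein 1) transcription factors described here are 10 genes of the FOS, JUN, ATF, BATF and MAF families, namely Fos, Fosb, Fosl2, Jun, Junb, Jund, Atf3, Batf, Batf3 and Maff. They were taken by name from a table of counts for 14209 genes, and all 10 have a row in it and passed the expression filter. RNA was sequenced from cDC2s, the type 2 subset of conventional dendritic cells, sorted from spleens of C57BL/6 mice, with 3 libraries for each of 3 genotypes. In the Gα13-deficient group (titled G13_KO), Gna13 alleles flanked by lox sites were deleted by a Cre recombinase under the CD11c promoter, which is active in dendritic cells and in some other myeloid and lymphoid cells. The genotype label of these 3 libraries also names Adgre5-/-, the loss of CD97. The CD97-deficient group (CD97_KO) lacks CD97, an adhesion receptor encoded by Adgre5, and the WT group has no modification named. Whether CD97-deficient and WT mice carried the Cre transgene or the floxed alleles, and whether animals were pooled, was not stated by the labels.

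AP-1 proteins bind DNA as dimers joined by a leucine zipper next to a basic region that contacts the DNA. FOS proteins dimerise with JUN proteins and JUN proteins also pair with each other, while BATF proteins pair with JUN proteins and act with IRF4 or IRF8 at composite sites in immune cells. Fos, Fosb, Jun, Junb and Atf3 are classical early response genes, whose transcription rises within minutes of a stimulus through MAP kinases and serum response factor, and dissociation of tissue for cell sorting is a known stimulus. In dendritic cells Batf3 is best known for its need in the development of the cross-presenting type 1 subset (cDC1).

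The sequences just before the starts of Fos, Fosb and Jun are shown because these 3 transcripts moved most closely together across the libraries. Each is the 250 bases before the RefSeq start on the GRCm38.p6 build, read on the gene's own strand from 5′ to 3′. The Fos window is chr12:85473640-85473889 on the plus strand, the Fosb window chr7:19310046-19310295 on the minus strand and the Jun window chr4:95052223-95052472 on the minus strand. Capitals mark matches on either strand to the CRE core TGACGT, the full CRE TGACGTCA, the TRE TGANTCA, the related TGACATCA, the EGR site GCGTGGGCG or the CArG box bound by serum response factor.
Fos: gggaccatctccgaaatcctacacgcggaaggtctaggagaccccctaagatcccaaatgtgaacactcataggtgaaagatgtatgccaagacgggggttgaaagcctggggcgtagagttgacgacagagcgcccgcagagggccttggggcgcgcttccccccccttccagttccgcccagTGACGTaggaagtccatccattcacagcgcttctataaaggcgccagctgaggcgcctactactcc
Fosb: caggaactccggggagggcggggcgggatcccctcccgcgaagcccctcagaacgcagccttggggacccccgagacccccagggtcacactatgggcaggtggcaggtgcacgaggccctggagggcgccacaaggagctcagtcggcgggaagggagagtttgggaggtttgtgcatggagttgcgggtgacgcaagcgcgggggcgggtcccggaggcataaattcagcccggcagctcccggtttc
Jun: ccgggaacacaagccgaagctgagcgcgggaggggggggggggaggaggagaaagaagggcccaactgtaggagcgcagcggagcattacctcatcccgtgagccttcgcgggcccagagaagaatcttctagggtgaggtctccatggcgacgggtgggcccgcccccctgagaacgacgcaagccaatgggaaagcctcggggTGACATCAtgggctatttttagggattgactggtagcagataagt
The Fos window held 1 CRE core at positions -66 to -61 from the start, which 6.47% of 32851 promoter windows of this length also held. The Jun window held 1 TGACATCA at positions -45 to -38, a motif present in 2.93% of all windows. The Fosb window had no match to these motifs. No window of the 10 members held a CArG box or a TRE, which 1.47% and 6.75% of all windows did. Only exact matches within these 250 bases were sought, so elements farther upstream would not be seen. The RefSeq starts used for Junb and Jund match no transcript start in the GENCODE M21 annotation, and the Jund window ends at 70697738, upstream of the GENCODE start of the gene at 70698949.

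Total counts ran from 5679946 to 13904646 per library. Values below are CPM, each count scaled to a common library total, on edgeR's TMM scale, in which library totals are rescaled by the trimmed mean of M values. Gna13 had 91.7 to 114 CPM in Gα13-deficient libraries, against 186 to 228 CPM in WT libraries, and fell by 1.09 ± 0.11 on the log2 scale (SE, edgeR quasi-likelihood adjusted p = 6.84e-05). Adgre5, listed as Cd97, had 438 to 840 CPM in CD97-deficient libraries, against 899 to 1506 CPM in WT libraries (log2 fold change -0.89 ± 0.28, adjusted p = 0.105), so the RNA of the targeted gene did not pass the threshold. In Gα13-deficient libraries Cd97 had 1016 to 1224 CPM, within the WT range, although their label names its loss (log2 fold change -0.13 against WT, adjusted p = 0.816). Genes that mark cDC2s were present in every library, with Sirpa at 736 to 927 CPM and Itgax, which encodes CD11c, at 1342 to 1930 CPM. Itgax rose by 0.34 in Gα13-deficient cells (adjusted p = 0.0146). The 18 macrophage markers summed to 1024 to 1458 CPM in Gα13-deficient, 915 to 2504 CPM in CD97-deficient and 775 to 1973 CPM in WT libraries. Of 11 cDC1 markers, Xcr1 stood at 4.04 to 23.0 CPM and Clec9a at 18.3 to 82.8 CPM, and in bulk RNA fewer cells of a type cannot be told apart from less RNA per cell. By Xist and Y-linked genes, 1 of 3 Gα13-deficient, all 3 CD97-deficient and 1 of 3 WT libraries were of the female pattern. Gα13-deficient and WT libraries of both patterns cannot all be repeats of 1 animal, but the labels do not name separate mice for each library, and p-values cover the variation among these libraries.

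At baseline, Jun was the most abundant of these transcripts per length. Set per kilobase of exon in GENCODE release M21, WT libraries had 63.0 ± 25.2 CPM per kilobase of Jun, 38.8 ± 1.37 of Batf3, 38.5 ± 25.0 of Fos and 26.3 ± 2.56 of Junb (SD, n = 3). Batf, Atf3, Jund and Fosb followed at 11.2 ± 3.62, 10.7 ± 4.22, 8.46 ± 3.99 and 6.81 ± 4.63 CPM per kilobase, then Maff at 4.54 ± 0.57 and Fosl2 at 1.37 ± 0.38. Neighbours in this order had overlapping ranges, except that every Junb value lay above every Batf value and every Maff value above every Fosl2 value. Relative to the mean, the SD over WT libraries was larger for Fos and Fosb than for the other 8 members and smaller for Batf3 than for the other 9.

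In Gα13-deficient cDC2s, Fos, Fosb, Fosl2 and Jun were above the WT level in all libraries without passing the threshold in the fit without pairing, and Batf3 fell. In that fit Batf3 was the only 1 of the 10 members past an adjusted p of 0.05 in edgeR's quasi-likelihood test, and with the replicate number as a block 2 passed, Batf3 and Jun (adjusted p = 0.036 for Jun). In the fit without pairing, 11.0% of 12043 tested genes passed in either direction, with 5.74% of tested genes higher and 5.24% lower. Of the 10 members 4 lay entirely above WT, against 15.5% of tested genes, and 1 entirely below, against 14.0%, so 5 of 10 did not overlap with WT, against 29.6%. At an unadjusted p under 0.05, 1 member was higher (Fosb) and 1 lower (Batf3), against 13.1% and 12.8% of tested genes. Their median log2 fold change was 0.27, against -0.008 for all tested genes.

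In CD97-deficient cDC2s no member passed the threshold by edgeR, limma-voom or DESeq2, and 1 of 10 (Batf3) had an unadjusted p under 0.05. In that comparison 8.53% of tested genes passed, 4.84% higher and 3.69% lower. At the unadjusted p, 12.5% of tested genes were higher and 12.0% lower. Estimates were negative for 9 of 10 members, and the median over the members was -0.38 on the log2 scale, against -0.003 for all tested genes. None lay entirely above WT, where 14.7% of tested genes did, and 1 lay entirely below, as did 13.5%, out of 28.2% that did not overlap. Both comparisons use the same 3 WT libraries.

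Set directly against CD97-deficient cells, Gα13-deficient cells had higher values of Fos, Fosb, Fosl2, Jun and Jund in every library. These 5 of 10 members lay entirely above the CD97-deficient range, as did 7.16% of tested genes, and none lay below it, as did 5.99% (13.1% in either direction). The same 5 had an unadjusted p under 0.05 with higher levels, against 3.21% of tested genes, and none were lower, against 2.78%. None passed after adjustment over 12043 genes by edgeR or limma-voom, where 0.0498% of genes passed by edgeR, 0.0332% higher and 0.0166% lower, and DESeq2 called Fosb and Jun (adjusted p = 0.0323 for each). The members had a median difference of 0.59 on the log2 scale, against -0.003 for all tested genes.

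Markers of plasmacytoid dendritic cells were also higher in sum in the Gα13-deficient libraries, and those of monocytes and neutrophils overlapped between the groups in sum. The 11 plasmacytoid dendritic cell markers summed to 635 to 794 CPM in Gα13-deficient, 559 to 601 CPM in CD97-deficient and 451 to 626 CPM in WT libraries. Siglech, a defining marker of these cells, had 22.8 to 75.9 CPM in Gα13-deficient, 5.57 to 18.3 CPM in CD97-deficient and 9.68 to 26.8 CPM in WT libraries. Of the 11, 2 rose against WT, Cox6a2 (2.89, adjusted p = 0.000468) and Tcf4 (0.40, adjusted p = 0.0149), and 1 rose against CD97-deficient cells, Cox6a2 (3.44, adjusted p = 0.00241), as log2 fold changes. Of all tested genes 5.74% rose against WT and 0.0332% rose against CD97-deficient cells. Against CD97-deficient cells 5 of the 11 lay entirely above and 0 below, where 7.16% and 5.99% of tested genes did. Of 8 tested monocyte and neutrophil markers 4 lay entirely above and 1 below. Of 7 tested T and NK cell markers 4 lay above and 0 below, as did 4 and 0 of 14 cDC2 markers. Over the 12 monocyte and neutrophil markers in the table, the sum was 1006 to 1487 CPM in Gα13-deficient, 786 to 1072 CPM in CD97-deficient and 623 to 1099 CPM in WT libraries. The part of these cells in the AP-1 values was not tested.

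**Figure D1:**
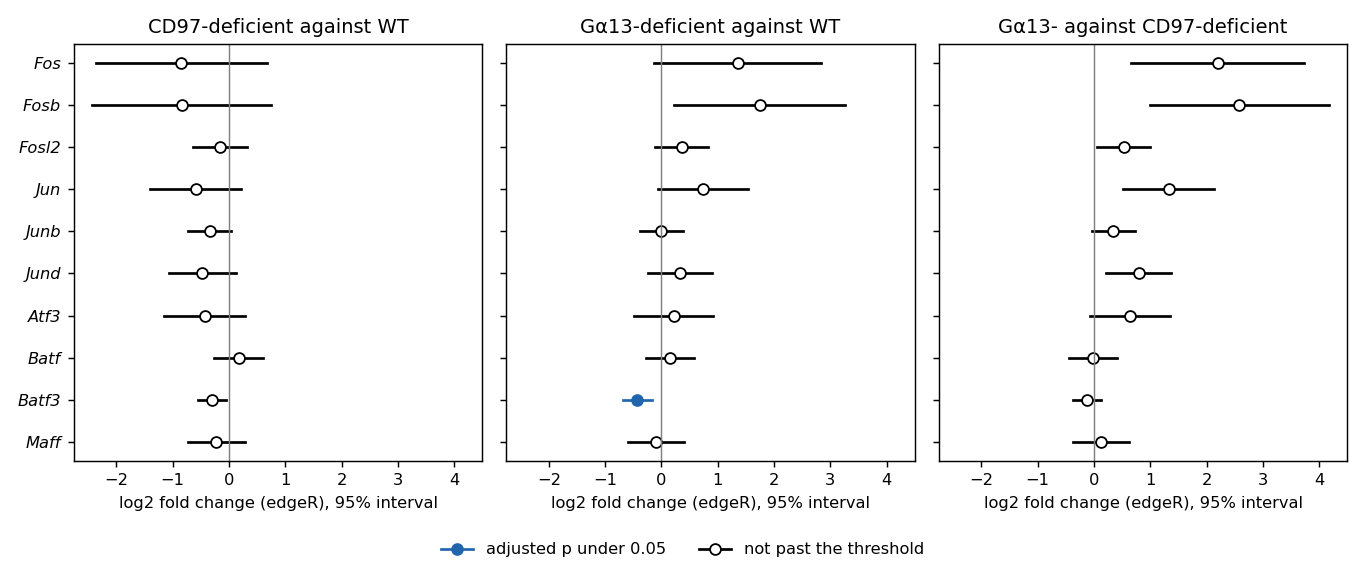
Log2 fold changes of the 10 AP-1 members in the 3 comparisons (x axis), with 95% intervals from edgeR's quasi-likelihood fit as lines and 1 gene per row. Batf3 in Gα13-deficient against WT cells, at -0.43, is the only filled point (adjusted p under 0.05 without a replicate block), and the widest intervals belong to Fos and Fosb.

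Fos encodes c-Fos, which cannot pair with itself and needs a JUN partner. Its gene lies on chromosome 12 (85473890 to 85477273, plus strand, mm10). The Gα13-deficient libraries had 328, 181 and 192 CPM of Fos in replicates 1 to 3, the CD97-deficient libraries 68.7, 36.8 and 46.6 CPM and the WT libraries 140, 106 and 25.5 CPM. Every Gα13-deficient value was above every other value, whereas the CD97-deficient values lay within the WT range, and WT replicate 3 was the lowest of all 9. The log2 fold change was 1.35 ± 0.61 in Gα13-deficient against WT cells (SE; 95% interval -0.13 to 2.83; adjusted p = 0.23). It was -0.85 ± 0.62 in CD97-deficient against WT cells (interval -2.36 to 0.67; adjusted p = 0.465) and 2.20 ± 0.63 between the knockouts (interval 0.67 to 3.73; adjusted p = 0.675). The size in Gα13-deficient cells depended on single WT libraries, at 1.81 without WT replicate 1 and 0.92 without WT replicate 3. In CD97-deficient cells it was -0.40 without WT replicate 1 and -1.28 without WT replicate 3.

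Fosb (chromosome 7, 19302696 to 19310051, minus strand) encodes a second early FOS protein, known for the stable splice form ΔFosB. Its CPM values were 210, 102 and 121 in Gα13-deficient replicates 1 to 3, 30.2, 16.1 and 25.8 in CD97-deficient replicates and 67.5, 49.1 and 10.9 in WT replicates. The groups were ordered as for Fos, with the Gα13-deficient libraries on top and WT replicate 3 lowest. Fosb had the largest fold change of the 10 members in the Gα13-deficient group against WT, with a log2 value of 1.74 ± 0.63 (interval 0.22 to 3.26; adjusted p = 0.146). Between the knockouts the difference was 2.58 ± 0.66 (interval 0.99 to 4.17; adjusted p = 0.641), and CD97-deficient cells differed from WT by -0.84 ± 0.66 (adjusted p = 0.494). That last value was -0.34 without WT replicate 1 and -1.27 without WT replicate 3.

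Fosl2 encodes Fra-2, a FOS protein with slower kinetics, on chromosome 5 (32135801 to 32157842, plus strand). It had 18.6, 15.99 and 16.8 CPM in Gα13-deficient, 11.5, 9.23 and 14.9 CPM in CD97-deficient and 15.2, 15.5 and 9.003 CPM in WT replicates 1 to 3. The Gα13-deficient values were again the 3 highest, though the lowest of them was close to the highest WT value. The log2 fold change was 0.36 ± 0.22 against WT (adjusted p = 0.322) and 0.53 ± 0.22 against CD97-deficient cells (adjusted p = 0.782), and CD97-deficient cells differed from WT by -0.16 ± 0.23 (adjusted p = 0.698). Without WT replicate 3 the value for Gα13 loss was 0.16 and that for CD97 loss -0.36.

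**Figure D2:**
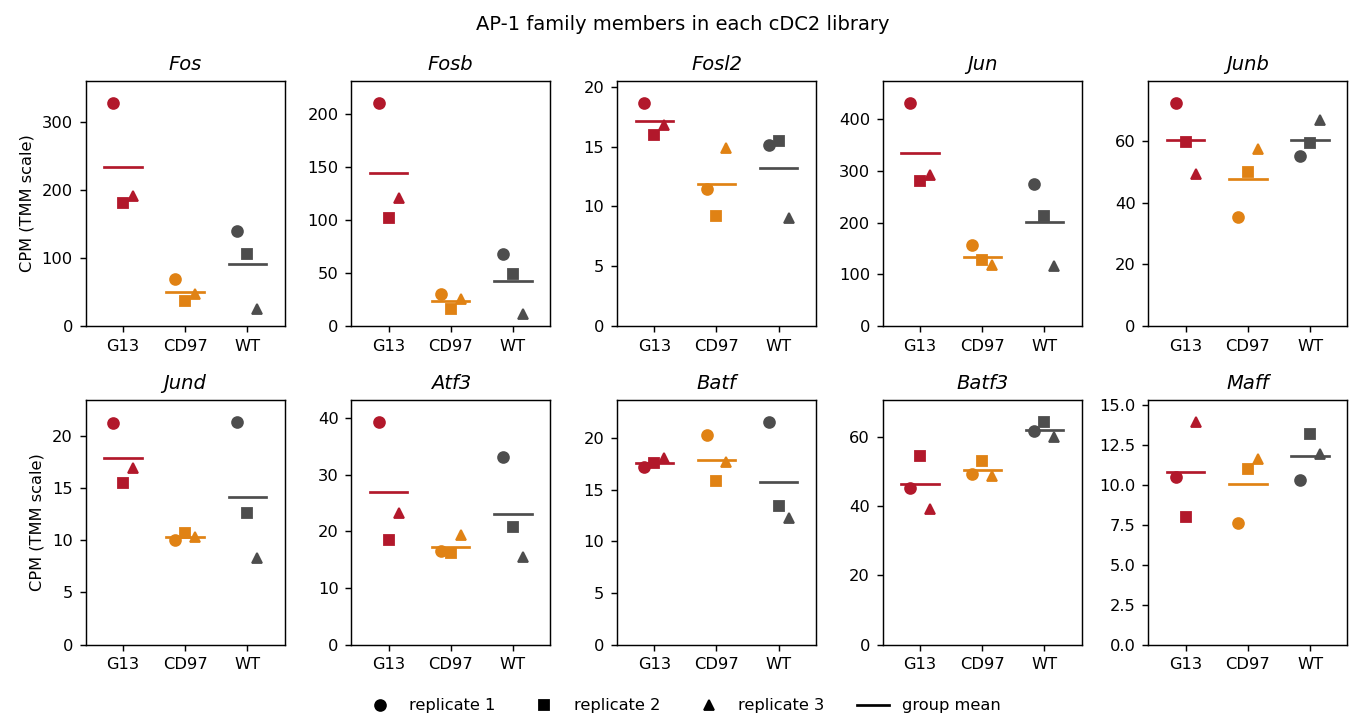
CPM on the TMM scale (y axis, linear from 0) of each AP-1 member in the Gα13-deficient (G13), CD97-deficient (CD97) and WT libraries, with a symbol per replicate and a line at the group mean. The Gα13-deficient values of Fos lie between 181 and 328 CPM, above all others, and the WT values of Batf3 lie between 60.0 and 64.3 CPM, above all others.

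Jun encodes c-Jun, the common partner of FOS and BATF proteins and itself an AP-1 target. Its single exon lies on chromosome 4 (95049034 to 95052222, minus strand). Gα13-deficient replicates 1 to 3 had 431, 281 and 293 CPM, CD97-deficient replicates 156, 127 and 118 CPM and WT replicates 274, 213 and 115 CPM. All Gα13-deficient values exceeded all WT values, with replicate 2 close to WT replicate 1, and the CD97-deficient values overlapped with WT. The log2 fold change was 0.73 ± 0.33 in Gα13-deficient against WT cells (interval -0.06 to 1.53; adjusted p = 0.229). Same-number libraries of these groups deviated together in the check given under the processing, but the labels name no shared animal or day. In edgeR with the replicate number as a block, Jun rose by 0.78 (adjusted p = 0.036) with all 9 libraries. It rose by 0.79 (adjusted p = 0.0393) in the 2 groups alone. The difference between the knockouts was 1.32 ± 0.34 (interval 0.51 to 2.13; adjusted p = 0.613), and that of CD97-deficient against WT cells -0.59 ± 0.34 (adjusted p = 0.342). Single libraries moved these values, for Gα13 loss to 0.46 without WT replicate 3, and for CD97 loss to -0.31 without WT replicate 1. In the female-pattern libraries alone, with 1 WT library, the difference after CD97 loss was -0.67.

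Junb (chromosome 8, 84974484 to 84978718, minus strand) encodes a JUN protein that is a weaker activator than c-Jun and often opposes it. Its values were 72.2, 59.6 and 49.3 CPM in Gα13-deficient, 35.5, 50.1 and 57.3 CPM in CD97-deficient and 55.1, 59.4 and 66.8 CPM in WT replicates 1 to 3. Unlike Fos and Jun, Junb was highest in WT replicate 3 among the WT libraries and the groups overlapped. The log2 fold change was 0.00 ± 0.17 in Gα13-deficient against WT cells (interval -0.38 to 0.38; adjusted p = 0.998) and -0.34 ± 0.18 in CD97-deficient against WT cells (adjusted p = 0.262). Jund (chromosome 8, 70698949 to 70700616, plus strand) encodes the JUN protein usually found in unstimulated cells. It had 21.2, 15.5 and 16.9 CPM in Gα13-deficient, 10.1, 10.7 and 10.3 CPM in CD97-deficient and 21.4, 12.6 and 8.32 CPM in WT replicates 1 to 3. The knockouts did not overlap for Jund, with a difference of 0.79 ± 0.27 on the log2 scale (adjusted p = 0.669), while the WT libraries spanned both. Against WT its log2 fold change was 0.32 ± 0.26 in Gα13-deficient (adjusted p = 0.48) and -0.47 ± 0.27 in CD97-deficient cells (adjusted p = 0.313). The value for Gα13 loss was 0.18 without Gα13-deficient replicate 1, 0.76 without WT replicate 1 and 0.07 without WT replicate 3, and that for CD97 loss was -0.04 without WT replicate 1 and -0.73 without WT replicate 3.

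Reads of 3 JUN genes cannot be told apart from reads of a gene on the opposite strand if counting ignored strand, which the sources used here do not state. The antisense gene Gm11175 shares 877 of the 1668 exon bases of Jund, the antisense gene Junos 232 of the 3189 exon bases of Jun and Prdx2, which encodes a peroxidase, 173 of the 2301 exon bases of Junb. Prdx2 itself stood at 16.5 to 31.6 CPM.

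Atf3 (chromosome 1, 191170296 to 191218039, minus strand) encodes a stress-induced factor that represses inflammatory genes in macrophages. It had 39.4, 18.4 and 23.3 CPM in Gα13-deficient, 16.6, 16.1 and 19.3 CPM in CD97-deficient and 33.2, 20.8 and 15.5 CPM in WT replicates 1 to 3. Replicate 1 was the highest library in the Gα13-deficient and WT groups, and all groups overlapped. The log2 fold change was 0.22 ± 0.31 in Gα13-deficient against WT cells (adjusted p = 0.719) and -0.43 ± 0.32 in CD97-deficient against WT cells (adjusted p = 0.454), and the knockouts differed by 0.65 ± 0.32 (adjusted p = 0.861). Without WT replicate 1 the value for CD97 loss was -0.08. Maff (chromosome 15, 79346621 to 79359076, plus strand) encodes a small MAF protein, which lacks an activation domain and pairs with NRF2 and BACH proteins. Its values were 10.4, 7.997 and 13.9 CPM in Gα13-deficient, 7.57, 10.99 and 11.6 CPM in CD97-deficient and 10.3, 13.2 and 11.9 CPM in WT replicates 1 to 3. The groups overlapped, and its log2 fold changes against WT were -0.10 ± 0.23 (adjusted p = 0.837) for Gα13 loss and -0.22 ± 0.24 (adjusted p = 0.598) for CD97 loss.

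Batf3 was lower in both knockouts than in WT in every library, and the fall passed the threshold for the Gα13-deficient group. The gene lies on chromosome 1 (191097847 to 191108945, plus strand). Batf3 had 45.3, 54.4 and 39.1 CPM in Gα13-deficient, 49.2, 52.9 and 48.7 CPM in CD97-deficient and 61.5, 64.3 and 60.0 CPM in WT replicates 1 to 3. All 6 knockout values lay below all WT values, and the knockouts overlapped. The log2 fold change was -0.43 ± 0.12 in Gα13-deficient against WT cells (interval -0.68 to -0.18; adjusted p = 0.0306). In CD97-deficient against WT cells it was -0.30 ± 0.12 (interval -0.55 to -0.05; adjusted p = 0.127), and the direct difference of the knockouts was -0.13 ± 0.12 (interval -0.38 to 0.13; adjusted p = 0.948), so a fall in Gα13-deficient cells alone was not shown. The call was lost without Gα13-deficient replicate 1 (adjusted p = 0.0858) or 3 (0.116), without WT replicate 1 (0.0626), 2 (0.0668) or 3 (0.0507), and in a fit of the 2 groups alone (0.0645). Within the male-pattern libraries, 2 against 2, the log2 fold change was -0.53 (adjusted p = 0.0881). Between the 1 Gα13-deficient and the 1 WT library of the female pattern it was -0.23.

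Markers of other dendritic cell states are given beside Batf3, since cDC1s and mature dendritic cells also express it. Of the 11 cDC1 markers, 1 rose and 1 fell after Gα13 loss, the chemokine receptor Xcr1 (1.22, adjusted p = 0.0472) and Tlr11 (-0.83, adjusted p = 0.0101), given as log2 fold changes. Both also passed after CD97 loss, Xcr1 at 1.32 (adjusted p = 0.0409) and Tlr11 at -1.03 (adjusted p = 0.00422). Of all tested genes 5.74% rose and 5.24% fell after Gα13 loss, and 4.84% rose and 3.69% fell after CD97 loss. The summed CPM of the cDC1 list was 1973 to 2012 in Gα13-deficient, 2075 to 2216 in CD97-deficient and 1998 to 2132 in WT libraries. Wdfy4 contributed 1464 to 1778 CPM of this sum. Averaged over markers, log2 CPM relative to the 9-library mean was 0.105 to 0.386, -0.315 to 0.284 and -0.619 to 0.198 in that order. After Gα13 loss 3 of the 11 lay entirely above WT and 1 below, where 15.5% and 14.0% of tested genes did. Irf8 was among those above (1.23, adjusted p = 0.108). After CD97 loss 0 lay above and 1 below, where 14.7% and 13.5% of tested genes did. Of 15 tested mature dendritic cell markers 9 fell and none rose after Gα13 loss, where 5.24% of all tested genes fell. After CD97 loss 8 of these markers fell, where 3.69% of all tested genes did. Their summed CPM was 1372 to 1480 in Gα13-deficient, 1502 to 1624 in CD97-deficient and 2210 to 2766 in WT libraries, so the groups were ordered as for Batf3. Among them, Cd83, a surface marker of maturation, fell by 0.84 after Gα13 loss (adjusted p = 0.000108) and by 0.70 after CD97 loss (adjusted p = 0.00059). Ccr7, the receptor that guides mature dendritic cells to lymph nodes, fell by 1.14 after Gα13 loss (adjusted p = 0.00534) and by 1.40 after CD97 loss (adjusted p = 0.00283). The part of these lists in the Batf3 result was not tested.

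Batf, the founding BATF gene, is needed in several activated lymphocyte states and lies on chromosome 12 (85686669 to 85709087, plus strand). It had 17.3, 17.6 and 18.1 CPM in Gα13-deficient, 20.3, 15.8 and 17.7 CPM in CD97-deficient and 21.6, 13.5 and 12.2 CPM in WT replicates 1 to 3. The WT libraries spanned both knockouts, and the log2 fold change was 0.15 ± 0.20 for Gα13 loss (interval -0.28 to 0.58; adjusted p = 0.692) and 0.18 ± 0.20 for CD97 loss (interval -0.26 to 0.61; adjusted p = 0.638). Without WT replicate 1 these values were 0.46 for Gα13 loss and 0.47 for CD97 loss, and without WT replicate 3 they were 0.003 and 0.03. Irf4, the partner of BATF proteins that cDC2s need for their function, fell by 0.37 in Gα13-deficient cells (adjusted p = 0.0132), with 205 to 231 CPM in these against 260 to 290 CPM in WT libraries. Among 16 transcription factors at AP-1 promoters and AP-1 partners, Irf4 was the only 1 past the threshold after Gα13 loss. After CD97 loss 0 of 16 passed by edgeR (1 at an unadjusted p under 0.05). Of all tested genes 11.0% passed after Gα13 loss and 8.53% after CD97 loss. At the unadjusted p, 12.5% were higher and 12.0% lower after CD97 loss.

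Across the 9 libraries, Fos, Fosb, Fosl2, Jun, Jund and Atf3 varied together, while Junb, Batf3 and Maff did not follow Fos and Batf did so less closely. Pearson's r of log2 CPM was 0.99 between Fos and Fosb, 0.98 between Fos and Jun, 0.91 between Fos and Jund and 0.78 between Fos and Atf3, but 0.46 between Fos and Batf, 0.19 between Fos and Junb and -0.36 between Fos and Batf3. With the group means removed, r with Fos was 0.99 for Fosb, 0.97 for Jun, 0.85 for Jund, 0.76 for Atf3, 0.71 for Batf, -0.29 for Junb and 0.02 for Batf3. These are descriptions over 9 libraries that share group differences, library preparation and depth.

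**Figure D3:**
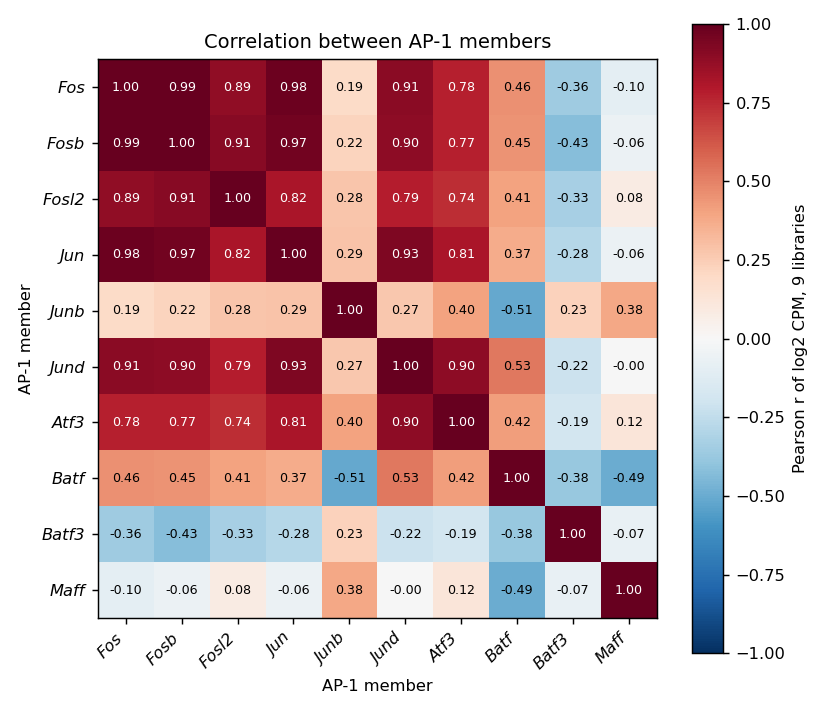
Pearson's r of log2 CPM over the 9 libraries for each pair of AP-1 members (both axes), with the value printed in each cell and red for positive, blue for negative. Fos, Fosb, Fosl2, Jun, Jund and Atf3 form a block with values from 0.74 (Fosl2 and Atf3) to 0.99 (Fos and Fosb), outside which lie Junb, Batf, Batf3 and Maff.

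By the same measure over the 9 libraries, the tested genes most like Fos were Fosb (0.99), Jun (0.98), the tyrosine kinase gene Ptk2b (0.98) and the early response gene Egr1 (0.97). Those most like Jun were Egr1 (0.98), Fos (0.98), Egr2 (0.98) and Fosb (0.97). For Batf3 they were Asprv1 (0.94), Spire1 (0.94), Zfp26 (0.94) and Ypel2 (0.93), for Atf3 Cul4b (0.98), Hexa (0.96), Zfp36l2 (0.94) and R3hdm1 (0.93), and for Maff Cwc25 (0.90), Gtf3a (0.89), Ppm1e (0.88) and Wisp3 (0.88). Genes with Gm, Rik, pseudogene or ribosomal protein symbols were left out of this search. Whether the highest of many unrelated genes would reach such values over 9 libraries was not tested. Egr1 had 734, 381 and 401 CPM in Gα13-deficient, 162, 90.4 and 99.8 CPM in CD97-deficient and 459, 339 and 88.8 CPM in WT replicates 1 to 3, the same order of libraries as Fos but for the overlap of WT replicate 1 with the Gα13-deficient range.

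The libraries with the most Fos, Fosb and Jun also had the most heat shock RNA within their group. Heat shock genes known to respond to tissue dissociation summed to 5055, 3717 and 3732 CPM in Gα13-deficient, 3261, 2606 and 2310 CPM in CD97-deficient and 5773, 2351 and 1444 CPM in WT replicates 1 to 3, over 10 genes. The sum of Fos, Fosb and Jun was 969, 564 and 605 CPM in Gα13-deficient, 255, 180 and 191 CPM in CD97-deficient and 482, 369 and 152 CPM in WT replicates 1 to 3. Replicate 1 was highest in each group for both sums, and WT replicate 3 lowest of all. On a log2 scale r was 0.81 over the 9 libraries and 0.88 with group means removed. With the heat shock level in the model, a setting added after the data were seen, Jun rose by 0.55 in Gα13-deficient against WT cells (adjusted p = 0.0482), and Fos and Fosb had log2 fold changes of 1.11 (adjusted p = 0.181) and 1.52 (adjusted p = 0.113). None of the 10 heat shock genes passed the threshold in any comparison by edgeR. An unadjusted p under 0.05 was reached by 0 after CD97 loss, 1 after Gα13 loss and 1 between the knockouts. In the same order 8.53%, 11.0% and 0.0498% of tested genes passed the threshold. At the unadjusted p, 12.5%, 13.1% and 3.21% of tested genes were higher and 12.0%, 12.8% and 2.78% lower. Between the knockouts 4 of the 10 lay entirely above the CD97-deficient range in Gα13-deficient cells and 0 below, against 7.16% and 5.99% of tested genes. The part of the heat shock level in the AP-1 values was otherwise not tested.

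**Figure D4:**
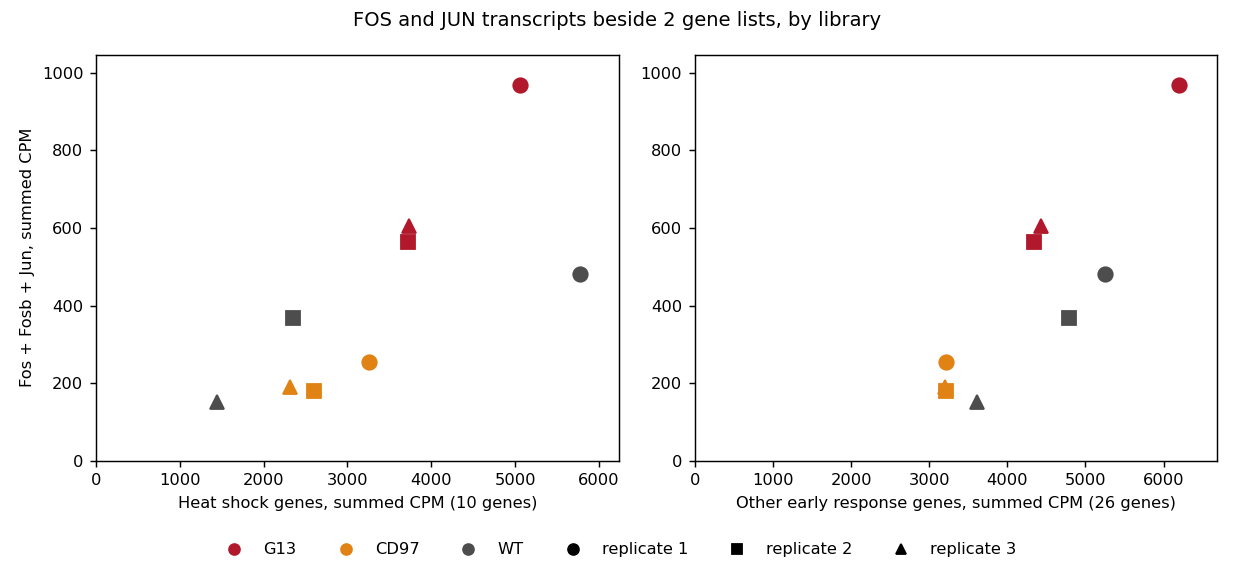
Summed CPM of Fos, Fosb and Jun (y axis) against the summed CPM of 10 heat shock genes (left) and of 26 other early response genes (right), 1 point per library, coloured by group with a symbol per replicate. Gα13-deficient libraries have sums of Fos, Fosb and Jun from 564 to 969 CPM, above those of the CD97-deficient (180 to 255 CPM) and WT libraries (152 to 482 CPM).

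Other early response genes fell in part after CD97 loss. Of 26 tested, 7 fell and none rose, against 3.69% and 4.84% of all tested genes, and the list had a median of -0.57 on the log2 scale. The 4 with the smallest p were Nfkbiz (-0.76, adjusted p = 0.000842), an IκB protein of the nucleus, Ppp1r15a (-0.71, adjusted p = 0.021), Zfp36l1 (-0.70, adjusted p = 0.0299) and Dusp2 (-0.57, adjusted p = 0.0305), which inactivates MAP kinases. After Gα13 loss 2 rose, Klf4 (0.92, adjusted p = 0.000166) and Klf2 (0.69, adjusted p = 0.0419), and 2 fell, Gadd45b (-0.99, adjusted p = 0.00835) and Nr4a3 (-0.91, adjusted p = 0.0183), with a median of 0.08. Of all tested genes 5.74% rose and 5.24% fell after Gα13 loss. Between the knockouts 0 of 26 passed by edgeR, and 16 had an unadjusted p under 0.05, where 3.21% of tested genes were higher and 2.78% lower. In Gα13-deficient cells 13 lay entirely above the CD97-deficient range, against 7.16% of tested genes.

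Calls among kinases upstream of AP-1 and related factors were few or none, and most tested genes were not called either. Of 16 genes for MAP kinases and the kinases above them, 0 passed by edgeR in any comparison (2, 0 and 3 at an unadjusted p under 0.05 in CD97-deficient against WT, Gα13-deficient against WT and Gα13- against CD97-deficient cells). Mapk3, which encodes ERK1, came nearest, with a log2 fold change of 0.42 after CD97 loss (adjusted p = 0.0523). Of 26 tested genes for other basic leucine zipper factors, 1 fell after Gα13 loss, the NRF family gene Nfe2l3 (-1.24, adjusted p = 0.0387), at 1.93 to 4.21 CPM in Gα13-deficient against 5.45 to 10.4 CPM in WT libraries. None of them passed by edgeR after CD97 loss (2 at an unadjusted p under 0.05) or between the knockouts (0 at that level). Of all tested genes 8.53% passed after CD97 loss, 11.0% after Gα13 loss and 0.0498% between the knockouts. At the unadjusted p, 12.5%, 13.1% and 3.21% were higher and 12.0%, 12.8% and 2.78% lower, in the same order.

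Of 16 tested genes known from other cells as AP-1 targets, 2 fell and 1 rose after Gα13 loss, where 11.0% of all tested genes passed. After CD97 loss 3 fell and 1 rose, where 8.53% of all tested genes passed. Tnf, a cytokine gene, had 38.1 to 53.5 CPM in Gα13-deficient, 29.7 to 34.1 CPM in CD97-deficient and 56.2 to 85.7 CPM in WT libraries, with log2 fold changes of -0.66 (adjusted p = 0.0204) and -1.08 (adjusted p = 0.00179) for Gα13 and CD97 loss. Il1b, which encodes interleukin 1β, fell by 0.80 after Gα13 loss (adjusted p = 0.000983) and by 0.82 after CD97 loss (adjusted p = 0.00131). Spp1, which encodes osteopontin, rose by 1.25 (adjusted p = 0.0164) and 1.33 (adjusted p = 0.0156) at 4.20 to 5.21 CPM in Gα13-deficient and 4.58 to 5.09 CPM in CD97-deficient, against 1.75 to 2.04 CPM in WT libraries. The chemokine gene Ccl4 fell by 2.62 after CD97 loss (adjusted p = 0.048). The list had medians of 0.02 after Gα13 loss and -0.24 after CD97 loss on the log2 scale.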

How the data were processed

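RNA of splenic cDC2s was sequenced in 9 libraries. Whole-number counts per gene symbol were deposited by the authors, and per the submitters' processing notes STAR, HTSeq, DESeq2 and mm10 were used, without versions. Strand handling is not given. The table has 14209 genes, none with a total under 10, and no row without a gene name. Groups and replicate numbers come from sample titles, and WT columns were matched through source names, which number those libraries differently.

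Tests used edgeR 4.0.16 under R 4.3.3 (TMM factors, quasi-likelihood F-tests with robust estimation, genotype as the factor, all 9 libraries) after the default expression filter, which kept 12043 genes. P-values were adjusted by Benjamini-Hochberg over all of these, with a threshold of 0.05. Log2 CPM used a prior count of 2. Standard errors come from the F statistic. All 10 members had at least 46 counts in each library. No 2 libraries of a group were alike within sampling noise (chi-square per degree of freedom 6.25 to 20.5). The fit was tested on simulated counts. Exon lengths and coordinates are from GENCODE M21 and promoters from RefSeq (GRCm38.p6, 10 of 10 members matched).

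Same-number libraries of the Gα13-deficient and WT groups deviated from their group means together (r = 0.111 to 0.179), which meets the rule for pairs set for these comparisons. They did not for CD97-deficient and WT libraries (-0.301 to 0.059) or between the knockouts (-0.073 to 0.011), and the labels name no shared animal or day. In the Gα13-deficient and WT groups alike, replicates 1 and 3 were of the male pattern and replicate 2 of the female pattern. The part of sex in the r between these groups was not tested. The members and gene lists were chosen with earlier results of these data known. Beside the members, Cd97 and Gna13, genes were named by rule: the called genes of a list, up to 4 with the smallest p (up to 8 for other basic leucine zipper factors), and the 4 genes with the highest correlation to the leading member of each subfamily. Ccr7, Irf8, Mapk3, Prdx2, Siglech, Sirpa, Clec9a and Wdfy4 were added outside it after values were seen. Alternatives were RLE factors, library totals, no filter, DESeq2 1.42.0, limma-voom (limma 3.58.1), 2-group fits, replicate blocks, each library left out, and macrophage level or sex pattern in the model, with heat shock level and fits within each sex pattern added after the data were seen.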

Additional observations from a re-analysis of the deposited data

How the results depend on the processing

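For Fos, Fosb and Jun the direction held under every alternative in all 3 comparisons, and so did that of Batf3 against WT. Counts of called genes are given next for settings that moved them by over 1.5 times. For CD97-deficient against WT cells 1027 genes became 669 with the macrophage level, 222 with the sex pattern and 233 in female-pattern libraries (364 to 1271 without single libraries). For Gα13-deficient against WT cells 1322 became 611 in male-pattern and 255 in female-pattern libraries (693 to 1459 without single libraries). Between the knockouts 6 became 11 without the filter, 54 by DESeq2, 53 in the 2 groups, 14 with the macrophage level and 24 in female-pattern libraries (4 to 25 without single libraries). Library totals moved the share of higher calls to 70% and 62.2% for CD97 and Gα13 loss, against 56.8% and 52.3%.

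Called members after Gα13 loss were 1 in the fit reported and 0 in the 2 groups alone and in male-pattern libraries. They were 2 with the heat shock level and 0 to 1 without single libraries. Between the knockouts 2 were called by DESeq2. Fits in female-pattern libraries, which hold 1 WT and 1 Gα13-deficient library, are left out of these counts of members in all comparisons. The replicate block gave 2 called members after Gα13 loss, also in the 2 groups alone, by adding Jun, and changed no other member's call there. Replicate numbers do not pair the knockouts, where the block gave 14 called genes and 0 members, and in the 2 groups alone 73 genes and 3 members (Fos, Fosb and Jun, adjusted p = 3.06e-06, 7.36e-06 and 5.46e-05).

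Estimates near 0 changed sign. Junb after Gα13 loss was 0.034 with library totals, 0.0037 without the filter, 0.0074 with the replicate block, 0.014 with the macrophage level, 0.065 with the heat shock level, 0.012 in female-pattern libraries and -0.15 to 0.13 without single libraries. Atf3 after Gα13 loss was -0.15 (without Gα13-deficient replicate 1) to 0.58 without single libraries and -0.17 in female-pattern libraries. Maff after Gα13 loss was -0.34 to 0.062 (without Gα13-deficient replicate 2) without single libraries and 0.15 in male-pattern libraries. Between the knockouts Maff was -0.11 (without Gα13-deficient replicate 3) to 0.29 without single libraries and -0.33 in female-pattern libraries, Batf -0.095 to 0.076 (without CD97-deficient replicate 1) and Batf3 0.017 with the sex pattern and 0.12 in female-pattern libraries. The cause of these changes was not tested. With 3 libraries a group the 95% interval of the fold change of Fos after Gα13 loss ran from -0.13 to 2.83 on the log2 scale.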

Other observations

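The 4 male-pattern libraries had 116 to 193 CPM of Xist, against 6324 to 7332 CPM in the 5 female-pattern libraries. Ddx3y, which lies on the Y chromosome, was at 2.09 to 4.10 CPM in those 5 female-pattern libraries, against 160 to 306 CPM in the male-pattern libraries.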
